A study of Mus musculus with 8 samples.

Results

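A set of 10 genes of the integrated stress response was followed through RNA immunoprecipitates (RIP) of Flag-tagged eIF4A2 and the matching inputs in mouse embryonic stem cells (ESCs). The set held *Atf4*, *Atf5*, *Ddit3*, *Trib3*, *Chac1*, *Ddit4*, *Gdf15*, *Ppp1r15a*, *Asns*, and *Psat1*, which are 10 of the 52550 genes in the count table. The genes were chosen by symbol as *Atf4* and stress targets. *Gdf15* and *Ddit4* led the choice because their counts stood out among the RIP rises against the control and differed between the inputs. All 10 had at least 1 count per 1000000 gene reads (CPM) in each of the 4 inputs, as had 10754 genes in all. Because the choice used RIP against RIP and input against input, both comparisons are given for these 10 genes as descriptions without a test. A test is given only for RIP against input within the re-expressing cells, and there not for *Gdf15* and *Ddit4*. Its libraries also entered the comparisons behind the choice, so it is not independent of that choice.

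In the integrated stress response, kinases that sense amino acid shortage, unfolded protein, double-stranded RNA, or heme shortage phosphorylate the initiation factor eIF2. General translation initiation then falls, while mRNAs with suitable upstream open reading frames, such as *Atf4*, are translated better. The transcription factor ATF4 raises genes of amino acid supply, transfer RNA charging, and feedback. eIF4A2 belongs to another step of initiation, as an RNA helicase of the eIF4A family that helps unwind the 5′ end of mRNAs for the ribosome.

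RNA was sequenced from 8 libraries in 4 groups of 2, in which all cells carried the *Eif4a2* knockout (KO). The control cells held an empty vector (EV) and contained no Flag-tagged protein, and the other cells re-expressed Flag-tagged *Eif4a2* (Eif4a2flag in the labels, the full-length isoform FL in the study's methods). The 4 groups are called input EV, input FL, RIP EV, and RIP FL. Cells grew in ES-DMEM-2i medium with LIF, and RIP used 5 µg of anti-FLAG M2 antibody for 3 h. The FL replicates were 2 clonal lines with a transposon-borne transgene, and the origin of the EV replicates was not stated. The p-values therefore reflect the spread of these libraries alone, part of which may be technical. One field of RIP FL replicate 2 reads RIP Eif4a3, while its title, source, and genotype name *Eif4a2*. QuantSeq libraries read 1 tag close to the poly(A) tail of an mRNA whatever its length, so that CPM of different genes can be set side by side. In lysates of many cells, a lower value could come from fewer cells with a transcript or from less of it per cell, and these cannot be told apart.

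Gene reads ran from 2044853 to 11206420 per library. The RIP EV libraries stood apart. Their typical spread between replicates was 171%, against 23.1% to 30.1% in the other groups. They had 19.9% and 29.9% of their reads on genes, against 30.02% to 46.4% in the inputs, whose lowest library was level with RIP EV replicate 2, and 68.2% and 68.1% in RIP FL. Of the 10754 genes, 18.2% were without a read in either RIP EV library, as were 11.1% of those with 10 to 50 CPM in input EV. Raw counts of *Eif4a2* were 391 and 302 in input EV, 401 and 430 in input FL, 116 and 421 in RIP EV, and 860 and 473 in RIP FL. These counts are not scaled to the gene reads of each library, so they do not show that *Eif4a2* was higher in a group. They do not check the labels, because counts per gene do not show whether a tag lies in the deleted part or comes from the transgene. The 12 naive ESC markers summed to between 1895 and 3848 CPM, the 12 markers of differentiated cells to between 17.9 and 86.3 CPM, and the 7 fibroblast feeder markers to between 0.825 and 6.87 CPM.

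Promoters are shown because ATF4 is known to act through a composite site shared by many of its targets. RefSeq promoters (GRCm38.p6, 250 bases before to 50 after the start) were found for all 10 genes, with 13 promoters in all. The site core TGATGNAA, searched on both strands, lay in the promoters of *Asns*, *Chac1*, and *Trib3*, which is 3 of 10 genes, against 4.51% of 27025 genes, or 3.97% of all 32851 promoters. Each is written below in the direction of its gene with the match in capitals, and in *Chac1* and *Trib3* the capitals are the reverse complement of the core. The windows lie at chr6:7693215-7693242 (*Asns*, minus strand), chr2:119351039-119351066 (*Chac1*, plus strand), and chr2:152344029-152344056 (*Trib3*, minus strand).
Asns: cccagccacaTGATGAAActtcccgcac
Chac1: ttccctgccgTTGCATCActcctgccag
Trib3: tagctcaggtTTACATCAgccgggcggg
The matches were centred 19 bases before the RefSeq start of *Asns*, 189 bases before that of *Chac1*, and 18 bases after that of *Trib3*. The GENCODE starts differ from these. Against the GENCODE start at 7693254 the *Asns* match lies after the start, and against that at 152344032 the *Trib3* match lies before it. The endoplasmic reticulum stress element, searched as CCAAT and CCACG with 9 bases of any kind between them and on both strands, which serves other branches of the unfolded protein response, was in none of the 13 promoters and in 0.119% of all promoters. These are matches of letters in a short window, and sites outside the window were not searched.

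Features of the transcript itself were also read for the 10 mRNAs, and only a short total length was common to all of them. With 1 coding transcript per gene from GENCODE, each of the 10 was shorter than the median of 3010 bases over 10084 measured coding genes, and their own median was 1786 bases. Their 3′ untranslated regions (UTRs) had a median of 397 bases, against 1028, and that of *Psat1* was longer than this, at 1371. At least 1 upstream start codon was found in the 5′ UTR of 7 of the 10 (70.0%), against 50.9% of all, and at least 2 in 5 of the 10, against 28.5% of all. The longest 5′ UTRs were those of *Ppp1r15a* with 764 bases and 7 upstream start codons, *Atf4* with 594 and 3, *Gdf15* with 483 and 4, and *Atf5* with 373 and 2. *Ddit4*, *Trib3*, and *Chac1* had none. Of the pair that led the choice, *Gdf15* thus had 4 and *Ddit4* 0.

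**Figure D1:**
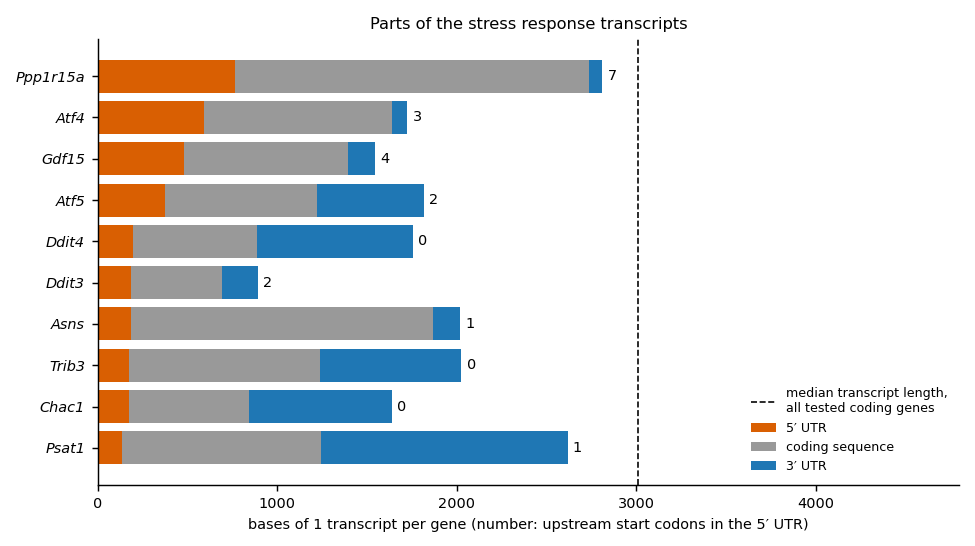
Bars give the length in bases of the 5′ UTR, coding sequence, and 3′ UTR of 1 coding transcript per gene, and the number at each bar counts start codons in the 5′ UTR. All 10 bars end left of the dashed line at 3010 bases, and *Ppp1r15a*, *Atf4*, *Gdf15*, and *Atf5* have the longest 5′ UTRs.

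*Atf4* (GRCm38 coordinates here and below, chromosome 15, 80255184 to 80257541, plus strand), the central transcription factor of the response, was the most abundant of the 10 in every library. The EV inputs held 864 and 704 CPM and the FL inputs 665 and 1269 CPM. RIP EV held 670.5 and 1528 CPM, and RIP FL 668 and 1216 CPM. All groups overlapped, and the FL clones differed from each other about as much in the input as in the RIP. Its mean level lay above 98.4% of measured genes in input EV and above 98.8% in input FL, so an abundant *Atf4* mRNA was present in both cell lines.

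*Atf5* (chromosome 7, 44812256 to 44816658, minus strand), a related factor that is also controlled through upstream reading frames, had 53.4 and 105 CPM in EV inputs against 89.6 and 183 CPM in FL inputs. RIP EV had 39.6 and 20.3 CPM and RIP FL 156 and 97.0 CPM. The inputs overlapped, whereas RIP FL lay above RIP EV in every library, with a ratio of means of 4.23.

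*Ddit3* (chromosome 10, 127290774 to 127296288, plus strand), which encodes the proapoptotic factor CHOP, showed 23.5 and 17.5 CPM in EV inputs against 46.1 and 69.5 CPM in FL inputs. RIP EV contained 132 and 65.2 CPM, and RIP FL 42.0 and 31.2 CPM. The FL inputs lay above the EV inputs, but the order turned in the RIP, where both EV libraries lay above both FL libraries. It was the only 1 of the 10 with this order between the RIP groups, which 12.1% of all measured genes showed. The last 68 bases of *Ddit3* overlap the end of *Mars* on the other strand, and the strand setting of the counting was not given. *Mars* had 386 to 5908 reads in a library, against 56 to 471 of *Ddit3*. A further annotated *Ddit3* entry on the same strand shares 2925 bases and is absent from the count table. The part of these overlaps in the *Ddit3* counts was not tested.

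Among the regulators downstream of ATF4, *Gdf15* (chromosome 8, 70629393 to 70632456, minus strand) encodes a secreted stress cytokine. Its inputs held 23.1 and 16.9 CPM with EV and 113 and 94.1 CPM with FL. No read fell on it in either RIP EV library, and RIP FL held 139 and 111 CPM. Its levels ran from RIP FL (125 ± 19.3, SD, n = 2) and input FL (104 ± 13.3), which overlapped, through input EV (19.98 ± 4.42) to RIP EV at 0.

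*Ddit4* (chromosome 10, 59949669 to 59951834, minus strand), the mTORC1 inhibitor REDD1, also ran from the FL groups through input EV to RIP EV, though with input FL at the higher mean. Its inputs held 41.5 and 32.5 CPM with EV and 94.6 and 133 CPM with FL. Both RIP EV libraries were at 0 counts, and RIP FL had 124 and 95.8 CPM. Here, too, RIP FL (109.8 ± 19.8, SD, n = 2) and input FL (114 ± 26.8) overlapped and both lay above input EV (37.0 ± 6.42).

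*Chac1* (chromosome 2, 119351229 to 119354381, plus strand), an enzyme that degrades glutathione, was the least abundant of the 10 in the inputs, with 7.02 and 1.56 CPM with EV and 10.2 and 13.3 CPM with FL. It was at 0 in each RIP EV library and at 9.91 and 15.4 CPM in RIP FL. The lower value of input EV rests on 5 reads.

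*Trib3* (chromosome 2, 152337422 to 152344032, minus strand), a pseudokinase that restrains ATF4 and CHOP, had 38.5 and 18.7 CPM in EV inputs against 39.4 and 58.3 CPM in FL inputs. RIP EV held 73.4 CPM in replicate 1, from 150 reads, and 0 counts in replicate 2, while RIP FL held 49.3 and 70.1 CPM. The inputs just failed to overlap, and the RIP EV libraries spanned the whole range of the other groups.

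*Ppp1r15a* (chromosome 7, 45522916 to 45526268, minus strand) encodes GADD34, the inducible subunit that directs a phosphatase to eIF2 and so closes the feedback loop. The EV inputs held 34.1 and 43.7 CPM and the FL inputs 35.5 and 42.1 CPM. RIP EV had 0 counts in replicate 1 and 34.1 CPM in replicate 2, and RIP FL had 88.1 and 71.9 CPM. It was alone among the 10 in that both RIP FL libraries lay above every other library of the series. Its 3′ end lies within *Tulp2* on the other strand, which had at most 74 reads in a library.

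The remaining genes make amino acids. *Asns* (chromosome 6, 7675169 to 7693254, minus strand), asparagine synthetase, had 113 and 123 CPM in EV inputs against 154 and 218 CPM in FL inputs. In the RIP it had 24.5 and 196 CPM with EV and 208 and 266 CPM with FL. *Psat1* (chromosome 19, 15904678 to 15947337, minus strand), an aminotransferase of serine synthesis, had 146 and 83.0 CPM in EV inputs against 201 and 379 CPM in FL inputs. Its RIP libraries held 58.2 and 98.4 CPM with EV and 122 and 166 CPM with FL, so that its FL inputs were its highest libraries. Both genes had FL inputs above the EV inputs and RIP FL above RIP EV.

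**Figure D2:**
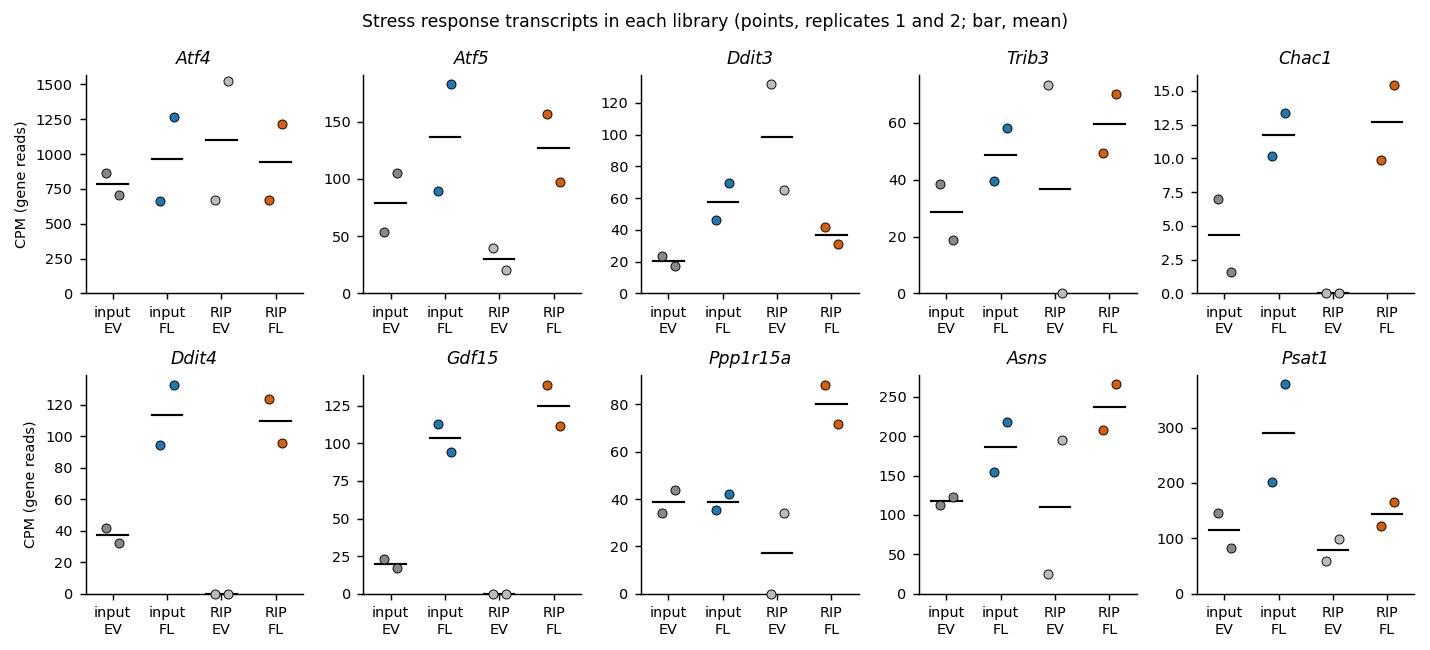
CPM on gene reads of each of the 10 genes (linear axes from 0), with 1 point per library for replicates 1 and 2 and a bar at the group mean. *Gdf15*, *Ddit4*, and *Chac1* sit at 0 in RIP EV, *Ddit3* is highest in RIP EV, and *Ppp1r15a* is highest in RIP FL.

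Input FL against input EV asks whether the cell lines already differed in these mRNAs before immunoprecipitation. Both FL inputs lay above both EV inputs for 7 of the 10 genes and below them for none, whereas 19.8% of all measured genes lay above and 17.3% below. The exceptions were *Atf4*, *Atf5*, and *Ppp1r15a*, whose groups overlapped. On the log2 scale of the edgeR fit, with its standard error (SE), *Gdf15* differed most (2.35, SE 0.35), which was rank 6 of 10754. *Ddit4* (1.59, SE 0.33), *Ddit3* (1.46, SE 0.36), *Chac1* (1.31, SE 0.61), and *Psat1* (1.30, SE 0.40) followed. *Atf5*, *Trib3*, *Asns*, and *Atf4* came to 0.79, 0.72, 0.65, and 0.28, and the ratio of *Ppp1r15a* means was 0.997. The median of the 10 was 1.05, against −0.01 over all measured genes. Since the genes were chosen with this comparison known, the numbers describe them and support nothing about the pathway.

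With single input libraries left out, this median lay between 0.64, without input FL replicate 2, and 1.64, without input EV replicate 1. The number that opens the column name of input EV replicate 1 stands apart from those of all other libraries, and its meaning was not given. In input FL, 9 of the 10 genes were higher in replicate 2 than in replicate 1, and in input EV 7 of 10 were higher in replicate 1. The value of *Atf4* turned to −0.21 without input FL replicate 2. *Chac1* ranged from 0.67 without input EV replicate 2 to 2.98 without replicate 1, and *Gdf15* from 2.10 to 2.71 over all alternatives.

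The rest of the pathway was read from 70 other genes in 7 lists, of which 66 were measured. edgeR called none of the 66 between the inputs in either direction, as it called 0.0% of all genes. At an unadjusted p under 0.05 it had 8 of the 66 higher in input FL and 1 lower, against 3.74% and 3.66% of all genes, and DESeq2 called 0 of the 66, beside 0.112% and 0.0465% of all genes. With no gene called, what can be given is the position of each list. The 4 lists of ATF4 and CHOP targets (amino acid enzymes, amino acid transporters, transfer RNA synthetases, and others) had 37 of 43 positive log2 fold changes with a median of 0.52. Of all measured genes, 49.3% had positive values. Both FL inputs lay above both EV inputs in 26 of these 43 genes, or 60.5%, and below in none, beside the 19.8% and 17.3% of all genes. The median stayed between 0.29 and 0.80 when single input libraries were left out. A positive median was not particular to these lists. The 11 measured hypoxia targets, which include *Ero1l* and *Vegfa* of these lists, had a median of 0.58, with 72.7% above. For the 17 measured p53 targets these values were 0.27 and 41.2%.

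The transfer RNA synthetases, which charge transfer RNAs with amino acids, were the most even of these lists. All 12 had positive values, between 0.32 and 0.90 with a median of 0.51, and 11 of the 12 had FL inputs above the EV inputs. *Gars*, the glycyl enzyme, had 456 and 391 CPM in EV inputs against 462 and 779 CPM in FL inputs (log2 fold change 0.53, adjusted p = 0.754 by edgeR's quasi-likelihood test). *Eprs*, which charges glutamate and proline, had 329 and 249.97 CPM against 475 and 339.7 CPM, and *Mars*, the methionyl enzyme, 245 and 260.0 CPM against 324 and 359 CPM. None of these differences passed the test.

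The 11 enzymes of amino acid and one-carbon metabolism were all positive, with a median of 0.52. FL inputs lay above both EV inputs for 5 of them (45.5%) and below for none, beside 19.8% and 17.3% of all genes. The abundant mitochondrial folate enzyme *Mthfd2* was nearly level (295 and 293 CPM against 263 and 376 CPM). *Mthfd1l*, its neighbour in the pathway, had 182 and 74.9 CPM against 173 and 346 CPM, and *Got1*, the cytosolic aspartate aminotransferase, 181 and 104 CPM against 187 and 221 CPM. Of the 8 measured transporters, 6 were positive with a median of 0.56. *Slc3a2* and *Slc7a5*, which together form a carrier for large neutral amino acids, had log2 fold changes of 0.53 and 0.51, and the cationic carrier *Slc7a3* −0.04. The 12 measured other targets had a median of 0.45, with *Herpud1* at 0.81, *Eif4ebp1* at 0.19, and the autophagy gene *Map1lc3b* at −0.07.

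The 8 genes of eIF2 kinases and their activators had a median of −0.32, with 2 positive values, but the median turned to 0.05 without input FL replicate 2 and was negative without any other single input. *Impact*, which restrains the kinase GCN2, had 102 and 81.1 CPM in EV inputs against 79.9 and 49.5 CPM in FL inputs, and *Dele1*, which relays mitochondrial stress, 34.4 and 36.2 CPM against 41.8 and 50.1 CPM. The heme-sensing kinase gene *Eif2ak1* overlapped between the groups (log2 fold change 0.25). The 9 genes of eIF2, eIF2B, and the constitutive phosphatase subunit had a median of −0.03, with *Eif2s2*, *Eif2b5*, and *Eif2b2* at 0.31, −0.45, and −0.20. Of the 6 measured partner factors, *Nupr1*, a stress-induced chromatin protein, had 35.6 and 12.5 CPM in input EV against 68.4 and 93.5 CPM in input FL (log2 fold change 1.68, adjusted p = 0.625 by edgeR). It passed without input EV replicate 1 (2.78, adjusted p = 0.00719 by edgeR), without input FL replicate 1 (1.86, 0.0353), and without a filter on low counts (0.00857). *Jund* came to 0.63 and *Atf2* to −0.21. *Atf3* had no reads in any input, and neither had *Fgf21*.

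The 17 genes of the other branches of the unfolded protein response, governed by ATF6 and IRE1, had a median of −0.29. This median ran from −0.50 without input EV replicate 1 to 0.03 without input EV replicate 2. FL inputs lay above both EV inputs for 2 of the 17 and below for 3, beside 19.8% and 17.3% of all genes. *Hspa5*, the chaperone BiP, had 1483 and 1464 CPM in EV inputs against 1487 and 1717 CPM in FL inputs. *Hsp90b1* and *Calr*, further chaperones of the endoplasmic reticulum, had log2 fold changes of −0.29 and −0.13. Whether these lists differ from each other was not tested. Markers of differentiated cells were also read beside the inputs. Their 12 genes summed to 32.5 and 55.9 CPM with EV and 86.3 and 41.4 CPM with FL, which overlapped, with 3 to 6 of the 12 at 0 counts in an input. Of the 5 measured, 3 had FL inputs above the EV inputs (60.0%, beside 19.8% of all genes), with *Otx2* at 1.19. The part of these markers in the input differences was not tested.

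**Figure D3:**
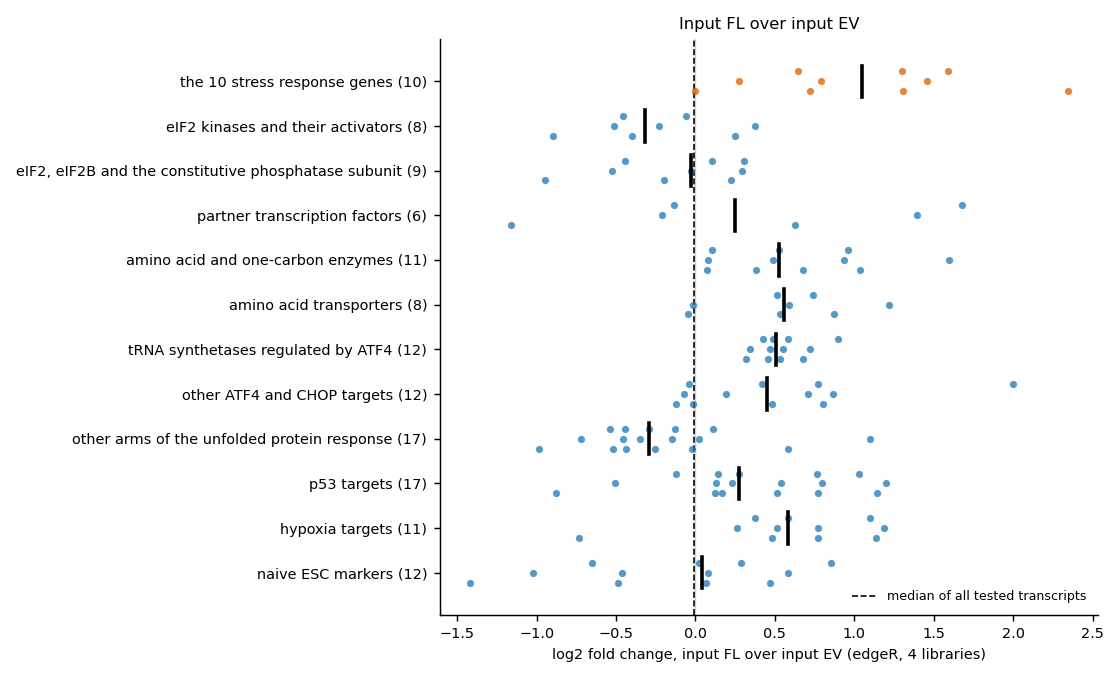
Log2 fold changes of input FL over input EV (edgeR, 4 libraries) for each measured gene of a list, with the number of genes in parentheses, a black bar at each list's median, and a dashed line at the median of all 10754 genes. The medians of the 10 genes, the 4 target lists, the partner factors, and the hypoxia and p53 targets lie to the right of the line. Those of the eIF2 kinases and the other branches of the unfolded protein response lie to its left. Those of the eIF2 and eIF2B list and of the naive ESC markers lie close to it.

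RIP FL against input FL asks whether an mRNA was recovered with Flag-eIF4A2 beyond or below its level in the same cells. RIP and input libraries overlapped for 7 of the 10 genes, among them the pair that led the choice. *Gdf15* (log2 fold change −0.04, SE 0.27) and *Ddit4* (−0.35, SE 0.28) are given without a test. Of the other 8, 1 was called lower and none higher at an adjusted p under 0.05, beside 8.46% and 8.44% of all genes, so the share was near the background. DESeq2 on these 4 libraries called 2 lower and none higher, beside 10.2% and 9.27% of all genes. The median over the 10 was −0.26, against 0.02 over all genes, and it came to 0.05 without input FL replicate 2. These fold changes are scaled by TMM, whereas scaling by library size alone moved the median of all genes to 0.33. Both RIP FL libraries lay above both inputs in CPM for 45.8% of all genes and below for 18.7%.

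The gene that fell was *Psat1*, with 201 and 379 CPM in input FL and 122 and 166 CPM in RIP FL. Its log2 fold change was −1.30 (SE 0.34, adjusted p = 0.0295, edgeR's quasi-likelihood test on the 4 libraries). The call was lost without input FL replicate 2 (adjusted p = 0.0799), without RIP FL replicate 1 (0.143), and with library size alone (0.0542). It was also lost when the RIP EV spread entered an 8-library fit (0.514 by edgeR and 0.201 by DESeq2).

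*Ddit3* had RIP libraries below both inputs as well (46.1 and 69.5 CPM against 42.0 and 31.2 CPM) and just missed the threshold, with −0.96 (SE 0.29, adjusted p = 0.0502 by edgeR). By DESeq2 its adjusted p was 0.0321. *Ppp1r15a* was the only 1 with RIP libraries above both inputs, at 0.74 (SE 0.26, adjusted p = 0.0821 by edgeR). With library size alone it reached 1.05 and an adjusted p of 0.0234, against a median of all genes of 0.33 on that scale. *Asns*, *Trib3*, *Chac1*, *Atf4*, and *Atf5* lay at 0.06, −0.01, −0.19, −0.32, and −0.40, with adjusted p values between 0.459 and 0.991 by edgeR, and leaving out single libraries turned the sign of each of these 5.

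**Figure D4:**
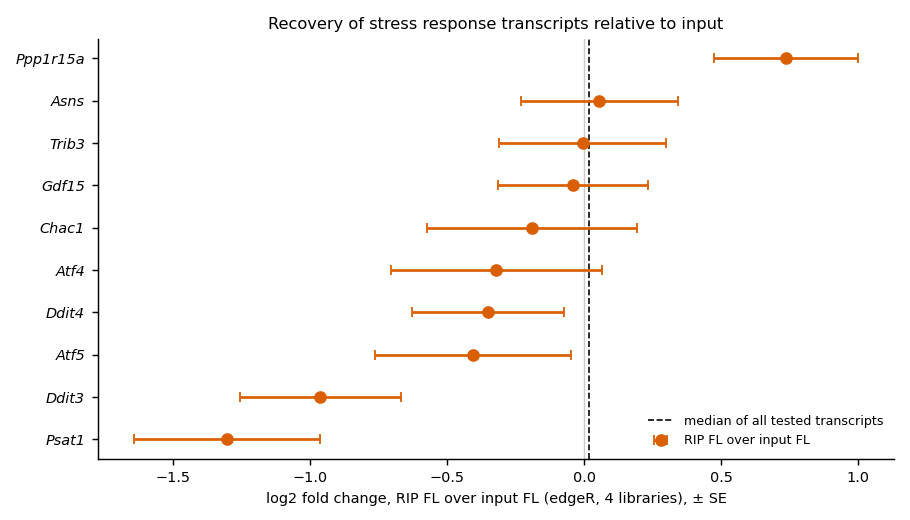
Log2 fold changes of RIP FL over input FL (edgeR, 4 libraries) of the 10 genes with bars of 1 SE, and a dashed line at the median of all genes (0.02). *Psat1* (−1.30) and *Ddit3* (−0.96) lie lowest, *Ppp1r15a* (0.74) lies highest, and *Gdf15* (−0.04) lies beside the line.

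Of the 66 other genes of the pathway, 7 rose and 2 fell in RIP FL against input FL, or 10.6% and 3.03%, beside the 8.44% and 8.46% of all genes, and their median was 0.01. Among those that rose were 2 eIF2 kinases. *Eif2ak4*, the amino acid sensor GCN2, had 32.2 and 13.0 CPM in the inputs and 76.5 and 122 CPM in RIP FL (log2 fold change 1.83, SE 0.45, adjusted p = 0.0235). Its value was 2.68 without input FL replicate 1, and its call was lost without RIP FL replicate 2 (1.39, adjusted p = 0.0571 by edgeR). *Eif2ak3*, the endoplasmic reticulum sensor PERK, had 8.01 and 12.2 CPM against 41.6 and 31.3 CPM (1.54, SE 0.33, adjusted p = 0.0157). *Ppp1r15b*, the constitutive partner of the same phosphatase that GADD34 serves, had 90.7 and 117 CPM against 245 and 235 CPM (0.91, SE 0.26, adjusted p = 0.0428).

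The other genes that rose belong to the target lists. *Aars*, the alanyl synthetase, had 88.7 and 98.9 CPM in input FL and 309 and 292 CPM in RIP FL (1.37, SE 0.26, adjusted p = 0.00967). *Xpot*, a transfer RNA exporter, had 55.0 and 59.6 CPM against 176 and 136 CPM, and *Sesn2*, a leucine sensor upstream of mTORC1, 82.7 and 77.1 CPM against 234 and 181 CPM, with log2 fold changes of 1.14 and 1.07 (adjusted p = 0.021 and 0.0271). *Aldh18a1*, the first enzyme of proline synthesis, passed only just, at 1.01 (adjusted p = 0.0495).

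Both genes that fell encode parts of the eIF2 machinery. *Eif2s2*, the beta subunit of eIF2, had 1317 and 686 CPM in input FL and 317 and 393 CPM in RIP FL (−1.82, SE 0.37, adjusted p = 0.0126). *Eif2b2*, a subunit of the exchange factor eIF2B, had 217 and 247 CPM against 142 and 119 CPM (−1.13, SE 0.26, adjusted p = 0.0196). All of these p values are from edgeR on the 4 libraries. edgeR on all 8 libraries called none of the 66, beside 0 higher and 6 lower of all 10754 genes. DESeq2 on all 8 called 2 higher and 1 lower, beside 274 and 430 of all genes. Without RIP FL replicate 1 the counts were 3 higher and 1 lower, and without RIP FL replicate 2 they were 4 higher and 2 lower. *Aars* and *Eif2s2* passed whichever single library was left out, although *Eif2s2* came to −1.21 without input FL replicate 1. The calls of *Eif2ak3*, *Xpot*, *Sesn2*, *Ppp1r15b*, *Aldh18a1*, and *Eif2b2* were lost without RIP FL replicate 1, with adjusted p between 0.0741 and 0.229. *Sesn2*, *Ppp1r15b*, *Aldh18a1*, and *Eif2b2* also missed the threshold without RIP FL replicate 2. Leaving out input FL replicate 1 removed *Ppp1r15b* and *Aldh18a1*, and leaving out replicate 2 removed *Sesn2* and *Aldh18a1*.

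RIP FL against RIP EV asks what the antibody recovered with the tagged protein over what it recovered without it. For these 10 genes it is the comparison that led the choice, so it is a description. RIP FL lay above RIP EV without overlap for 7 of the 10 genes and below for 1, beside 51.9% and 12.1% of all genes. In the EV cells themselves, where no tagged protein was present, 14.6% of all genes had RIP libraries above both inputs and 44.9% below. The RIP EV libraries had no read of *Gdf15*, *Ddit4*, or *Chac1*, and there 3 reads over the group would have been 0.557 CPM. The mean RIP FL level was 225-fold this floor for *Gdf15*, 197-fold for *Ddit4*, and 22.8-fold for *Chac1*. With the floor set on RIP EV replicate 2 alone these values were 139-fold, 122-fold, and 14.1-fold, and on replicate 1 alone 85.2-fold, 74.8-fold, and 8.64-fold. The floors cover counting error only and not the spread between the RIP EV libraries, so these values are not lower limits of a difference.

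The other ratios of means, RIP FL over RIP EV, were 4.69 for *Ppp1r15a*, 4.23 for *Atf5*, 2.16 for *Asns*, 1.83 for *Psat1*, 1.63 for *Trib3*, 0.857 for *Atf4*, and 0.371 for *Ddit3*. Single RIP EV libraries decided some of these. *Trib3* in RIP FL was 66.6-fold the floor of RIP EV replicate 2, where it had 0 counts. Yet its 73.4 CPM in RIP EV replicate 1 lay above both RIP FL libraries. *Ppp1r15a* was 54.5-fold the floor of replicate 1, where it had 0 counts, and had 34.1 CPM in replicate 2. The log2 fold change of *Asns* was 0.86 in the fit and 3.08 without RIP EV replicate 2, and that of *Atf4* moved from −0.45 to 0.29. RIP EV shares no library with the test of RIP FL against input FL, but RIP FL enters both, so that the comparisons are not independent. Input FL likewise enters both that test and the comparison of the inputs, which was known at the choice. A high input FL value raises the comparison of the inputs and lowers RIP FL over input FL, which bears on *Psat1* and *Ddit3*.

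The transcripts most like *Gdf15* over the 8 libraries, by Pearson's r of log2(CPM + 1), were *Ip6k2*, *Rhoq*, *Eef2k*, *Cdh1*, and *Klhl5*, with r from 0.992 to 0.994. *Eef2k*, the kinase of elongation factor 2, had 5.23 and 6.87 CPM in EV inputs, 16.0 and 15.4 CPM in FL inputs, 26.1 and 19.1 CPM in RIP FL, and no read in RIP EV. For *Ddit4* they were *Zswim6*, *Zfp846*, *Top2b*, *Wfdc2*, and *Chchd10*, with r from 0.996 to 0.999. *Ddit4* itself stood at rank 27 for *Gdf15* (r = 0.988), and *Chac1* at rank 287 (r = 0.963), whereas *Atf4* (r = −0.15) and *Ddit3* (r = −0.47) did not follow it. The 8 points are 4 pairs of replicates, a pair of them is RIP EV with its many 0 counts, and each r is given as a description.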

How the data were processed

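Input and RIP RNA was sequenced from 8 libraries. According to the submitters' processing notes and the study's methods, the authors mapped QuantSeq 3′ reads to mm10 with STAR (version 2.5.3a) and counted them per gene with HTSeq (version 0.11.2). The deposited values are raw counts, 1 column per library, with 5 summary lines that held 31.8% to 80.1% of reads and stayed out of totals and tests. Neither the annotation release nor the strandedness of the counting is given in the sources used here. GENCODE release M21 (GRCm38) named 52403 of 52550 genes, and 4 of the 10 genes overlap another gene.

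Genes with at least 1 CPM in all 4 inputs were tested with edgeR (version 4.0.16, R version 4.3.3), TMM factors, quasi-likelihood tests, and Benjamini-Hochberg adjustment (threshold 0.05). Each fit used only the 4 libraries compared, because RIP EV varied far more than the other groups. The study's own tool, DESeq2 (here version 1.42.0), was an alternative. Other alternatives were fits of 8 libraries, library size alone, DESeq2 size factors, filterByExpr or no filter, the replicate number as a block, and leaving out each library. Scripts were tested on simulated counts. Fibroblast markers were all below the filter. Upstream start codons were counted in the 5′ UTR of 1 coding transcript per gene. CPM are counts per 1000000 gene reads.

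The members, lists, and tests were chosen with earlier results of these data known. Named genes are the 10, *Eif4a2*, up to 3 called genes per list with the largest change and no overlap of libraries (or the 3 most abundant in the inputs where none was called), and the 5 transcripts most like *Gdf15* and *Ddit4*. *Pycr1*, *Jdp2*, *Atf3*, *Fgf21*, *Tulp2*, *Vegfa*, *Dppa3*, and *Tdgf1* were named after their values were seen.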

Additional observations from a re-analysis of the deposited data

Results flagged for a closer look

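*Ddit3* and *Ppp1r15a* stood out because RIP lay on opposite sides of the input in the 2 cell lines. For *Ddit3* the ratio of mean RIP to mean input CPM was 0.633 in FL cells, with both RIP libraries below both inputs, and 4.81 in EV cells, with both RIP libraries above both inputs. For *Ppp1r15a* it was 2.06 in FL cells, with both RIP libraries above both inputs, and 0.438 in EV cells. There RIP EV replicate 2 (34.08 CPM) was level with input EV replicate 1 (34.11 CPM) and RIP EV replicate 1 was at 0 counts, and the fitted log2 fold change was −1.21 with an SE of 2.28. The difference between the cell lines was not tested for either gene, and in RIP EV *Ppp1r15a* rests on 0 and 114 reads and *Ddit3* on 270 and 218.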

How the results depend on the processing

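Each group had 2 libraries. The reads carry no molecular identifiers, so copies of the same molecule cannot be told from separate molecules. Low counts limit *Chac1* and the genes at 0 in RIP EV. Other genes also differed widely between RIP EV replicates 1 and 2, with 150 and 0 reads of *Trib3*, 0 and 114 of *Ppp1r15a*, and 50 and 654 of *Asns*. The number of the 8 tested genes lower in RIP FL than in input FL, 1 in the reported fit, was 0 with edgeR or DESeq2 on all 8 libraries and with library size alone, and 2 with DESeq2 on the 4 libraries, with DESeq2 size factors, and without a filter on low counts. Leaving out single libraries gave 0 to 2. The number higher was 1 with library size alone and 0 under every other alternative. Of the 66 pathway genes, 7 rose, and this count was 0 with edgeR and 2 with DESeq2 on all 8 libraries, 15 with library size alone, and 3 to 9 without single libraries. The count that fell, 2, was 0 with edgeR on all 8 libraries, 1 with DESeq2 on all 8 and with library size alone, and 4 without a filter. Between the inputs, where 0 were called higher, *Nupr1*, *Pycr1*, and *Jdp2* made 3 without a filter, beside 38 of 20287 genes. No pathway gene was called lower there under any alternative run.

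With the replicate number as a block, 1 pathway gene (*Nupr1*, adjusted p = 0.00214 by edgeR) was called higher between the inputs, and 39 of all genes higher and 22 lower, where the reported fit called 0. The paired fit left the number of tested genes that fell at 1. It called 5 pathway genes higher and 3 lower, beside 749 and 699 of all 10754 genes. The numbers did not show a pairing, since deviations of same-numbered libraries correlated at −0.01 for RIP FL and input FL and at 0.13 between the inputs.

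Signs of the 5 genes near 0 in RIP FL against input FL turned. Without single libraries *Atf4* ranged from −0.88 to 0.16, *Atf5* from −0.80 to 0.14, *Chac1* from −0.60 to 0.12, *Trib3* from −0.34 to 0.26, and *Asns* from −0.19 to 0.27. With library size alone *Trib3* reached 0.29 and *Chac1* 0.10, and *Trib3* was 0.019 without a filter and 0.00029 with DESeq2 on all 8 libraries. The causes were not tested.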

Other observations

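Lists of other stress programmes were read between the inputs beside the integrated stress response, and no gene of them was called by edgeR. The 11 measured hypoxia targets had a median log2 fold change of 0.58, with 10 positive values and 8 whose FL inputs lay above both EV inputs (72.7%, beside 19.8% of all genes). Of them, *Ero1l* and *Vegfa* are also in the list of other ATF4 and CHOP targets. *Slc2a1*, a glucose carrier, had 85.7 and 81.8 CPM in input EV and 106 and 135 CPM in input FL, whereas *Pdk1*, which restrains pyruvate oxidation, had 142 and 139 CPM against 62.5 and 109 CPM. The 17 measured p53 targets had a median of 0.27, with 14 positive values, and *Mdm2* and *Zmat3* had FL inputs above the EV inputs while *Bax* overlapped. FL inputs lay above both EV inputs for 7 of the 17 (41.2%) and below for 1, beside 19.8% and 17.3% of all genes. At an unadjusted p under 0.05 by edgeR, 6 p53 targets were higher in input FL and 0 lower. For hypoxia targets these counts were 3 and 1, beside 3.74% and 3.66% of all genes.

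The 12 naive ESC markers had a median of 0.04 between the inputs and lay on both sides. FL inputs lay above both EV inputs for 3 (25.0%) and below for 4, beside 19.8% and 17.3% of all genes. *Tfcp2l1*, *Esrrb*, and *Klf2*, transcription factors of the naive state, had log2 fold changes of 0.58, 0.47, and 0.85, whereas *Dppa3* and *Tdgf1* had −1.42 and −1.02, and none of the 5 passed the test (adjusted p between 0.66 and 0.762 by edgeR). In RIP FL against input FL, *Zfp42* rose (1.24, adjusted p = 0.0383), as did *Creld2* of the unfolded protein response (1.35, adjusted p = 0.014), while *Calr* fell (−0.96, adjusted p = 0.0407), each by edgeR on the 4 libraries. No hypoxia or p53 target was called in that comparison.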
